A study of Mus musculus with 8 samples.

Results

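Transcription factors that set the fate of myeloid cells are described here in immune cells sorted from mouse brain. The 10 genes, Cebpa, Cebpb, Cebpd, Cebpe, Gfi1, Spi1, Klf4, Irf8, Batf3 and Id2, were taken by symbol from the 32285 genes of the count tables. For each of them the summed unique molecular identifiers (UMIs, which count captured RNA molecules), the level in CPM (the gene's UMIs divided by all UMIs of the same cells, on the usual CPM scale) and the share of cells with a UMI were computed in each myeloid cell class of each library. All 10 were detected in all 8 libraries, with 3845 UMIs of Gfi1 to 203894 UMIs of Cebpb over all cells kept.

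The libraries came from wild-type (WT) C57BL/6J mice and from AppNL-G-F mice, a knock-in strain whose humanized amyloid-β sequence carries the Swedish, Arctic and Iberian mutations. The mice were 16 weeks old by the labels. Controls drank water. Acute colitis was induced with 2% dextran sulfate sodium (DSS) in the drinking water for 7 days, and chronic colitis with 3 cycles in which 2% DSS and water alternated every 5 days. Food allergy was raised to ovalbumin, injected with alum and then given orally. Each genotype and condition had 1 library, so 8 libraries were compared. Brains were perfused, and CD45.2+ cells were sorted after labelling with hashtags, antibodies that carry a barcode for the sample they were added to. By the study's methods each library pools several mice. The labels do not say which animal carried which of the 4 hashtags of a library.

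These factors share the work of turning a blood progenitor into a granulocyte, a monocyte or a dendritic cell. PU.1, the protein of Spi1, and C/EBPα open the myeloid programme, Gfi1 and C/EBPε carry cells through the granule-forming stages of neutrophils, and C/EBPβ serves granulocyte production in emergencies and the survival of monocytes. Irf8 and Klf4 favour monocytes over neutrophils, Irf8, Batf3 and Id2 are needed for conventional type 1 dendritic cells (cDC1), and Irf8 is also high in plasmacytoid dendritic cells (pDC).

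From 4874 to 7199 cells per library were kept, with median depths of 2780 to 4130 UMIs per cell. Barcodes shared by a pair of libraries were at most 1.25% of the smaller library, and free RNA was estimated at 0.205% to 0.917% of the UMIs. Clusters were named from marker genes that held none of the 10 factors, and the 10 factors were kept out of the clustering, so each class name stands for cells like that type. A class led by F13a1 and Prtn3, named by those genes after its values were seen, lies with the granulocyte clusters. The myeloid classes held 824 progenitors, 298 neutrophil precursors, 2844 immature and 2163 mature neutrophils, 1740 F13a1+ Prtn3+ precursors, 1386 monocytes, 1622 macrophages, 980 cDC1, 493 conventional type 2 dendritic cells (cDC2) and 646 pDC. Sub-clusters that took no name entered none of these classes. A library entered a class with at least 20 cells, which left out WT acute colitis for neutrophil precursors (7 cells). In T cells, 10 immediate-early genes split the hashtag groups into 14 low groups (595 to 1476 CPM) and 16 high groups (3072 to 5009 CPM). In all 8 libraries the groups of hashtags 4 and 5 lay in one set and those of hashtags 6 and 7 in the other, with hashtag 6 found on no cell of WT food allergy and AppNL-G-F acute colitis. The low set held 53.9% of hashtagged progenitors and 63.7% of pDC, but 4.43% of cDC1, 6.36% of macrophages and 9.05% of monocytes.

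Sequences before the start site are shown for the 3 members whose promoter window held a searched motif. They are the 200 bases before the RefSeq start on the gene's own strand in mouse build GRCm38.p6, 5′ to 3′, with motif matches in capitals. The capitals mark TTGCNNAA, a core bound by C/EBP proteins, in Gfi1 at 143 bases before the start (chr5:107725806-107726005, minus strand). In Irf8 (chr8:120736158-120736357, plus strand) they mark TTCNNNGAA, the palindrome of STAT proteins, at 171 and 153 bases before the start. In Batf3 (chr1:191098214-191098413, plus strand) they mark GAGGAA, the core bound by PU.1, at 153 bases before the start.
Gfi1: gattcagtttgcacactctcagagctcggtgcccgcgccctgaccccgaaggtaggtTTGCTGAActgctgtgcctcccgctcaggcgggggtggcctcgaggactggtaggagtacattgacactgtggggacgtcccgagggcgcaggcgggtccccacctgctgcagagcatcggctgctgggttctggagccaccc
Irf8: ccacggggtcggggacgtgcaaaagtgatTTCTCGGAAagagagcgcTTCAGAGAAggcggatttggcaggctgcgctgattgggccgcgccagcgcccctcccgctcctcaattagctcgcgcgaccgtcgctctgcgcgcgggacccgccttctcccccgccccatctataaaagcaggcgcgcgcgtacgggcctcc
Batf3: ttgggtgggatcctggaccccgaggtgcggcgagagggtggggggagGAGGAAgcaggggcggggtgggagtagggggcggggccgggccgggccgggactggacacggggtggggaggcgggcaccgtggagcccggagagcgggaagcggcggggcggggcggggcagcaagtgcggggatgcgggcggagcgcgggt

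Both strands were searched, in the 7 members with a promoter entry. Gfi1 and Irf8 each had a second annotated start whose window held none of the motifs. Of the 32851 promoter windows of the same length, 7.47% held TTGCNNAA, 5.49% TTCNNNGAA and 19.0% GAGGAA. A further motif, the interferon-stimulated response element (ISRE) of interferon-regulatory factors, was in 2.27% of all windows and in none of the members'. These matches describe letters in a window and were not tested for binding.

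In the annotation, all 10 genes lie on different stretches of GRCm38. Gfi1 spans chr5:107716657-107726036 on the minus strand, Irf8 spans chr8:120736358-120756694 and Batf3 spans chr1:191097847-191108945, both on the plus strand. The windows printed for Gfi1 and Batf3 therefore lie inside these spans, and that of Irf8 ends before its span. Cebpa (chr7:35119293-35121928), Cebpb (chr2:167688915-167690418), Cebpd (chr16:15887286-15891031) and Spi1 (chr2:91082390-91115756) are on the plus strand. Cebpe (chr14:54710360-54712174), Klf4 (chr4:55527143-55532466) and Id2 (chr12:25093799-25097140) are on the minus strand.

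**Figure D1:**
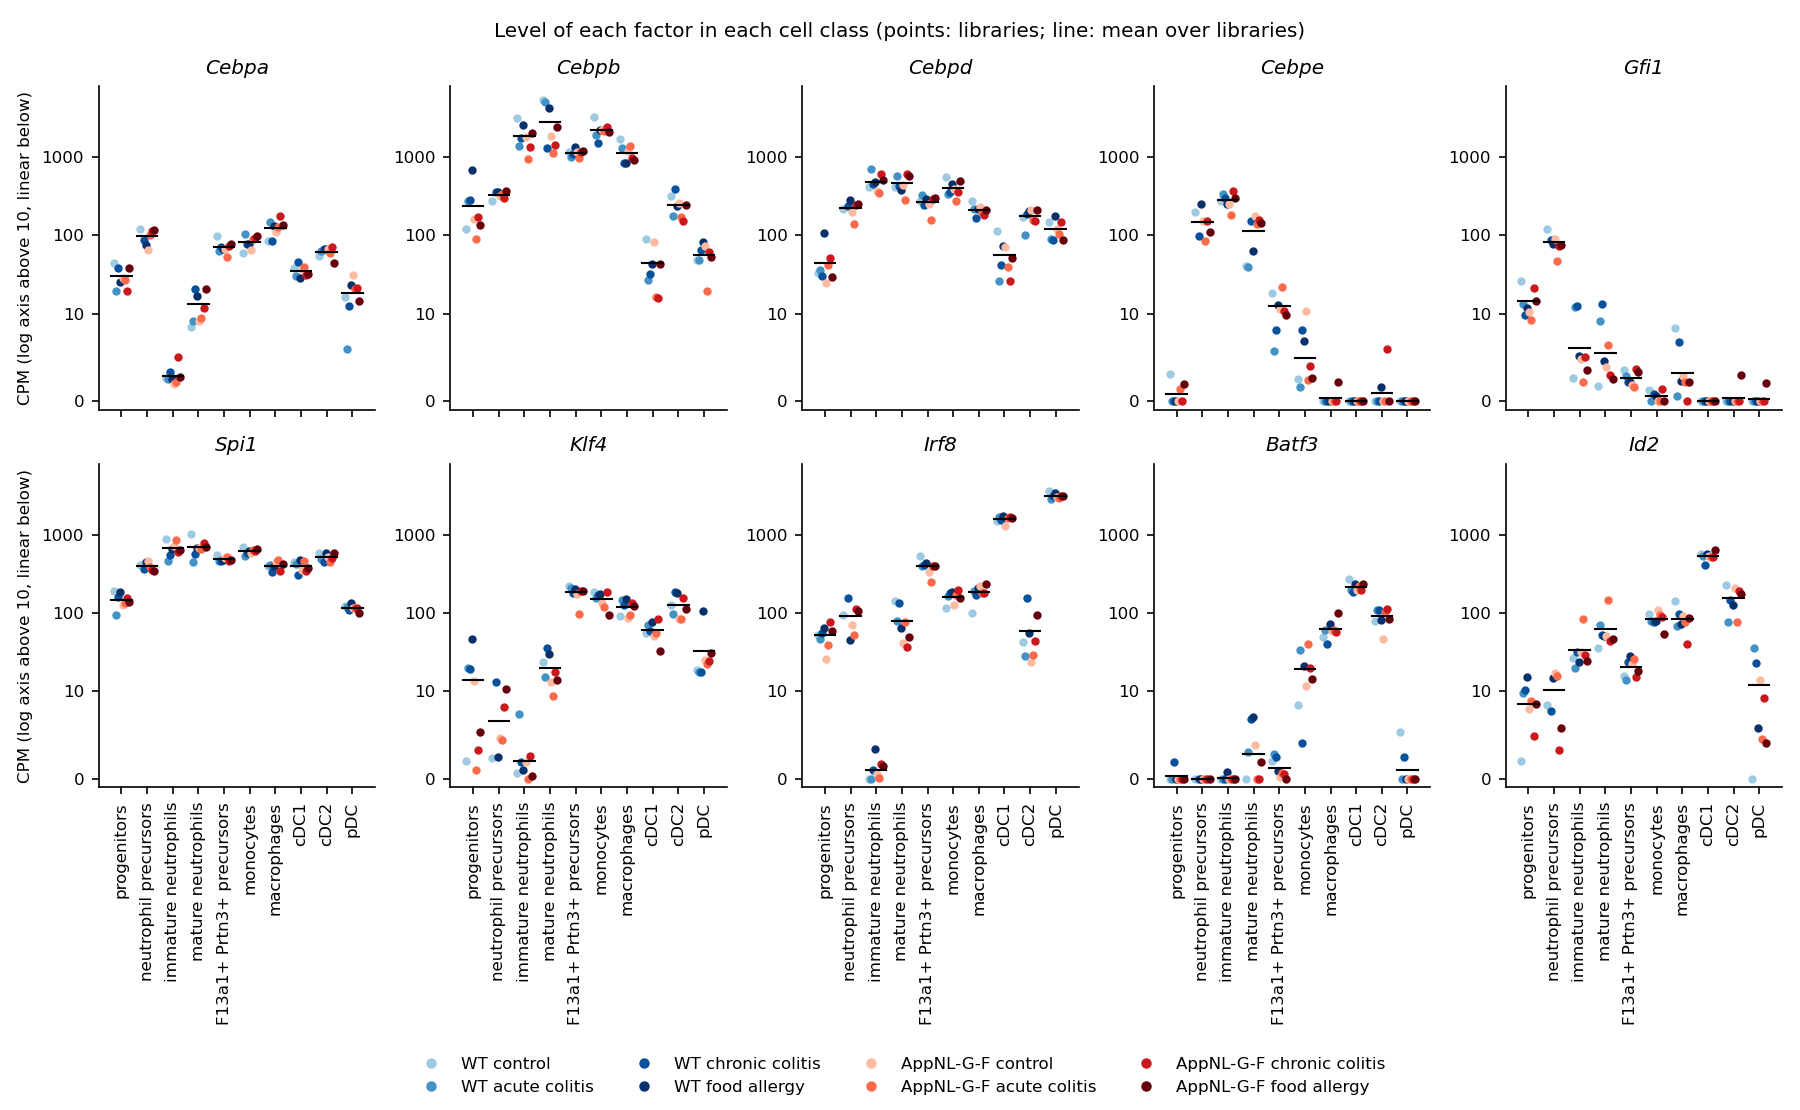
Level of each of the 10 factors in 10 myeloid cell classes, in CPM on an axis that is logarithmic above 10 and linear below; each point is 1 library and the black line is the mean over libraries. Among the classes shown, Gfi1 peaks in neutrophil precursors (mean 80.9 CPM), Cebpe in immature neutrophils (281 CPM), Irf8 in pDC (3138 CPM), and Batf3 and Id2 in cDC1 (218 and 538 CPM).

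Levels of the C/EBP factors and Gfi1 differed between stages of the neutrophil line. Gfi1, a repressor that keeps neutrophil precursors from the monocyte path, was highest in neutrophil precursors, at 46.7 CPM in the lowest library, 77.8 in the median one and 120 in the highest (80.9 ± 22.0 CPM, SD, n = 7). Progenitors reached at most 25.9 CPM, so those values did not overlap, and immature neutrophils were at 6.01 ± 4.08 CPM (SD, n = 8). Gfi1 was not particular to this line among immune cells. With cells of several hashtags left out, 30.5% of its UMIs lay in the myeloid classes. CD4 T cells held 17.4 to 31.0 CPM, and the lymphoid ILC2 had the highest class mean after neutrophil precursors. Cebpa, which directs progenitors into the granulocyte and monocyte line, stood at 96.8 ± 21.6 CPM in neutrophil precursors (SD, n = 7) against a median of 27.4 in progenitors and 2.86 ± 0.993 in immature neutrophils (SD, n = 8). No library of immature neutrophils exceeded 5.08 CPM of Cebpa, and no library of neutrophil precursors was below 65.1. Cebpa was not particular to this line, since macrophages held 122 and monocytes 79.9 CPM in the same 7 libraries.

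Cebpe, which switches on secondary granule genes, was highest in this line, and the next class, the F13a1+ Prtn3+ precursors, held 12.4 CPM. The myeloid classes together held 98.2% of its UMIs once cells with several hashtags were left out. Immature neutrophils held 179, 286 and 362 CPM in the lowest, median and highest library (281 ± 57.3, SD, n = 8). Neutrophil precursors held 85.7, 150 and 253 CPM (149 ± 59.9, SD, n = 7) and mature neutrophils 39.6, 141 and 176 CPM (114 ± 56.1, SD, n = 8). Progenitors held 10 UMIs over all libraries, with 0 in 5 of the 8 libraries, and cDC1 and pDC held 0. Within immature neutrophils the level was uneven: a sub-cluster of 272 cells led by Fcnb and Camp stood at 524 CPM, and the 2 larger sub-clusters at 208 and 168 CPM.

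Cebpb rose late. It stood at 238 ± 190 CPM in progenitors (SD, n = 8), 329 ± 34.3 in neutrophil precursors (SD, n = 7), 1855 ± 702 in immature and 2818 ± 1730 in mature neutrophils (SD, n = 8). The mature class ran from 1118 CPM to 5329 CPM with a median of 2116, so its libraries spread more than those of neutrophil precursors. Its mean joins unlike cells: a sub-cluster of 712 cells, 699 of them in the high hashtag set, held 6610 CPM. Another of 813 cells held 580 CPM. Cebpd, an acute-phase relative, stood at 44.3 ± 26.9, 223 ± 45.7, 480 ± 119 and 461 ± 112 CPM in the same classes. Its level in immature neutrophils lay above that in mature ones in 4 of 8 libraries (exact sign-flip test, adjusted p = 0.63). Monocytes held 2194 CPM of Cebpb and 401 of Cebpd, so neither was particular to this line.

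Between neutrophil precursors and progenitors, 7 of the 8 members tested were higher and none was lower (edgeR's quasi-likelihood test with libraries as a block, 7 libraries, Benjamini-Hochberg adjusted p over all genes). Of all 8478 genes, 23.1% were higher and 24.6% lower. The log2 differences were 7.02 ± 0.25 for Cebpe (SE), 2.61 ± 0.15 for Gfi1, 2.55 ± 0.16 for Cebpd, 1.80 ± 0.13 for Cebpa, 1.52 ± 0.09 for Spi1, 1.01 ± 0.20 for Cebpb and 0.97 ± 0.15 for Irf8, with edgeR adjusted p from 2.0e-14 for Cebpe to 0.00034 for Cebpb. The median of the members tested was 1.66, against -0.03 for all genes. Without TMM, the scaling that sets the bulk of genes equal, the median of all genes was -0.21 and 29.0% of the calls were higher instead of 48.5%. Id2, an inhibitor of E proteins, differed by 0.47 ± 0.27 (adjusted p = 0.17), and Klf4 and Batf3 were too low to test. Cebpb lost its call without the library block (0.72, edgeR adjusted p = 0.070), and the value for Cebpe rests on the 10 UMIs of progenitors.

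Among 32 other myeloid factors listed for comparison, 21 were tested here; 2 were higher and 14 lower. Id1, another E-protein inhibitor, rose by 1.80 ± 0.28 and Nfil3, a basic leucine zipper factor, by 1.62 ± 0.28 (log2 ± SE, n = 7 libraries). Gfi1b, the relative of Gfi1 that serves red cells and platelets, was lower at -6.07 ± 0.29, and Meis1, a homeobox factor of stem cells, at -3.36 ± 0.23.

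From neutrophil precursors to immature neutrophils, 5 members were higher and 3 lower of 8 tested, where 39% of 7803 genes were higher and 41.6% lower. Cebpb (3.63 ± 0.22), Id2 (3.07 ± 0.23), Cebpd (2.19 ± 0.11), Cebpe (2.12 ± 0.18) and Spi1 (1.99 ± 0.11) were higher (log2 ± SE). Irf8 (-5.16 ± 0.48), Cebpa (-3.96 ± 0.17) and Gfi1 (-2.87 ± 0.24) were lower, each in 7 of 7 libraries, with edgeR adjusted p of 6.9e-07, 1.7e-09 and 2.8e-07. The scale mattered: without TMM normalisation the median of all genes shifted to -1.24 and the higher calls were 20.6% of all calls instead of 48.4%, and no member changed direction. Of 20 other factors tested, 12 were higher, led by Klf2 (5.14 ± 0.28) and Irf7 (5.07 ± 0.26), and 7 were lower, led by the progenitor factors Hoxa9 (-6.50 ± 0.69) and Gata2 (-5.53 ± 0.50). The direction of 3 of the 12 rests on TMM: Fli1, Cebpg and Hhex had lower mean CPM in immature neutrophils (53.4 against 81.4, 22.4 against 37.0 and 35.2 against 53.4) and higher CPM in 0, 0 and 1 of 7 libraries. Gfi1 lost its call when the first clustering was made at a resolution of 1.0 (-0.70, edgeR adjusted p = 0.097).

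From immature to mature neutrophils, Cebpe fell by 1.69 on the log2 scale (SE 0.26, edgeR adjusted p = 0.00037), in 8 of 8 libraries. Irf8 (5.85 ± 0.46), Klf4 (3.84 ± 0.45), Cebpa (1.98 ± 0.23) and Id2 (0.51 ± 0.13) were higher and Cebpd lower (-0.37 ± 0.12), so 4 of 8 members were higher and 2 lower. Of 6623 genes 16.1% were higher and 13.3% lower, and without TMM the median of all genes moved from 0.02 to 0.36, 90.2% of the calls were higher instead of 54.8%, and Spi1 turned to 0.063. Cebpb (0.12 ± 0.21, adjusted p = 0.71) and Spi1 (-0.27 ± 0.12, adjusted p = 0.11) did not pass in edgeR. Cebpb passed in the high hashtag groups alone (0.72, edgeR adjusted p = 0.0093) and with the first clustering at a resolution of 1.0 (edgeR adjusted p = 0.00034), and Cebpe did not pass in the low groups of 2 libraries (-0.80, edgeR adjusted p = 0.37). Id2 lost its call without the library block (0.41, edgeR adjusted p = 0.38), in the low groups alone (0.14, edgeR adjusted p = 0.92) and at the resolution of 1.0 (0.27, edgeR adjusted p = 0.16). Cebpd was lower in 4 of 8 libraries and lost its call without TMM (edgeR adjusted p = 0.76) and without any 1 of WT control, WT chronic colitis, WT food allergy, AppNL-G-F acute colitis or AppNL-G-F food allergy (0.051 to 0.089). Irf5, a factor of inflammatory cytokine genes (3.14 ± 0.25), and Zeb2, a repressor (2.55 ± 0.23), had the largest rises of the other factors past the threshold. Ikzf1 (-0.47 ± 0.13) and Id1 (-0.41 ± 0.13) were the 2 that passed as lower. Their mean CPM differed less, at 86.4 in mature against 97.7 in immature neutrophils and 40.7 against 42.5. Mature neutrophils were the higher in 2 and 3 of 8 libraries.

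Irf8, Klf4 and Cebpa were highest in 2 of the 4 mature sub-clusters. A sub-cluster of 487 cells held 173 CPM of Irf8, 61.9 of Klf4 and 35.2 of Cebpa, and one of 151 cells held 289, 59 and 22.9 CPM. In the other 2 sub-clusters, of 813 and 712 cells, Irf8 was at 1.52 and 0.774 CPM, Klf4 at 0 and 1.55 and Cebpa at 8.80 and 3.10, against 2.09 to 3.94 CPM of Cebpa in the 3 immature sub-clusters. Markers of other cells moved with those values. In the 487 cells the 10 macrophage markers, all above 0, summed to 877 CPM, and in the 151 cells the 8 B cell markers, all above 0, summed to 2005 CPM; in the other 2 sub-clusters both lists summed to between 3.10 and 65.8 CPM. Markers of pDC, the class with the highest Irf8, summed to 223 CPM in the 487 cells and 1083 CPM in the 151 cells, against 32.2 and 20.5 in the other 2 sub-clusters, and cDC2 markers to 461 and 144 CPM against 27.6 and 5.81. The 487 cells included 272 of the high and 44 of the low hashtag set, and the rest belonged to neither. The part of these markers in the result was not tested.

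Without the 638 cells of both sub-clusters, which also had the granule genes Camp and Fcnb among their leading genes, mature neutrophils held 0.935 CPM of Irf8 (7 UMIs), 1.12 of Klf4 and 5.90 of Cebpa in the mean over libraries. These levels fell under the count filter. Cebpe stayed lower than in immature neutrophils and past the threshold, Cebpb became higher (0.80, edgeR adjusted p = 0.020), and Id2 (0.19) and Cebpd (0.10) no longer passed. Of the other 2 sub-clusters, the 712 cells led by Il1b held 6610 CPM of Cebpb and 20.5 of Cebpe, and the 813 cells held 580 CPM of Cebpb and 220 of Cebpe.

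**Figure D2:**
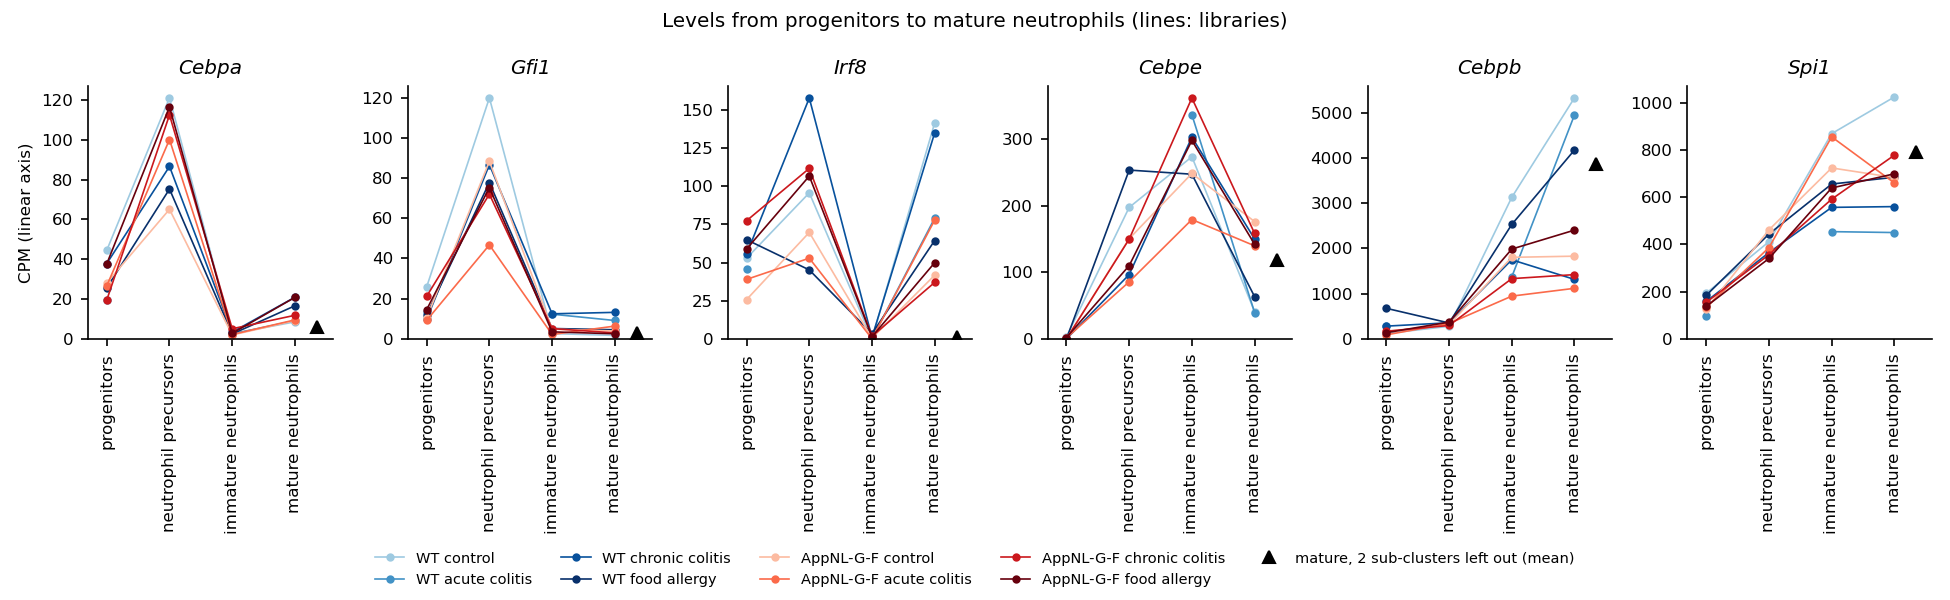
Levels in CPM (linear axis, 1 scale per gene) of 6 factors from progenitors to mature neutrophils; each line is 1 library, and the triangle is the mean of mature neutrophils without the 2 sub-clusters with Camp and Fcnb. Among the classes shown, Cebpa and Gfi1 peak in neutrophil precursors (means 96.8 and 80.9 CPM), and the mature level of Irf8 drops to 0.935 CPM when the 2 sub-clusters are left out.

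Spi1 was broad. Its lowest myeloid classes were pDC (117 ± 9.78 CPM, SD, n = 8) and progenitors (148 ± 31.9 CPM), and mature neutrophils were the highest (693 ± 167 CPM). Monocytes held 541, 616 and 695 CPM in the lowest, median and highest library, macrophages 329, 407 and 475, and cDC2 450, 513 and 590. Monocytes lay above cDC2 in 8 of 8 libraries (exact sign-flip test, two-sided, adjusted p = 0.037). CD4 and CD8 T cells, which lack PU.1, held 3.57 and 1.74 CPM.

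Klf4, a zinc finger factor of inflammatory monocytes, was highest in the F13a1+ Prtn3+ precursors, at 97.2, 190 and 220 CPM in the lowest, median and highest library. Monocytes (153 ± 33.4 CPM), cDC2 (128 ± 41.0) and macrophages (119 ± 25.3) came next (SD, n = 8), and the neighbours in that order did not differ beyond their spread. Macrophages lay above cDC1 (60.5 ± 15.7 CPM) in all 8 libraries (exact test, adjusted p = 0.037). Neutrophil precursors held 6.63 ± 4.25 CPM (n = 7) and immature neutrophils 1.97 ± 2.35 (n = 8). The F13a1+ Prtn3+ precursors also held Irf8 at 394 ± 80.2 CPM, above macrophages in 8 of 8 libraries, and Cebpe at 12.4 ± 5.36 CPM.

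Compared with progenitors, monocytes were higher for 7 members and lower for 1 of 8 tested, where 34.9% of 8598 genes were higher and 38.6% lower. Klf4 (4.16 ± 0.35), Cebpb (3.79 ± 0.30), Id2 (3.67 ± 0.22), Cebpd (3.6 ± 0.21), Spi1 (2.40 ± 0.09), Irf8 (1.97 ± 0.12) and Cebpa (1.72 ± 0.16) were higher in 8 of 8 libraries (log2 ± SE). Gfi1 was lower in 8 of 8 (-4.08 ± 0.38, edgeR adjusted p = 8.3e-08). Without TMM the median of all genes was -0.42 and 32.6% of the calls were higher instead of 47.4%. Of 27 other factors, 15 were higher and 9 lower. Irf5 (5.53 ± 0.12) was among the higher ones, and the progenitor factors Gata2 (-7.94 ± 0.27) and Myb (-7.42 ± 0.28) fell most.

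Between macrophages and monocytes the members split. Batf3 (1.82 ± 0.23) and Cebpa (0.59 ± 0.10) were higher in macrophages, each in 8 of 8 libraries. Cebpb (-0.97 ± 0.10), Cebpd (-0.91 ± 0.10) and Spi1 (-0.61 ± 0.08) were lower in 8 of 8 and Klf4 (-0.36 ± 0.12) in 7 of 8. That made 2 members higher and 4 lower of 8, where 25.8% of 6891 genes were higher and 27.8% lower. Irf8 (0.20 ± 0.10, edgeR adjusted p = 0.11) and Id2 (-0.04 ± 0.14, edgeR adjusted p = 0.82) did not pass. Klf4 lost its call without WT control (adjusted p = 0.079) and without AppNL-G-F control (adjusted p = 0.078), with DESeq2 (0.061), in the high hashtag groups alone (-0.20, adjusted p = 0.19) and at the resolution of 1.0 (adjusted p = 0.098), and Irf8 gained one without WT control (0.29, edgeR adjusted p = 0.021). Of 22 other factors 10 were higher, led by the macrophage factors Maf (3.70 ± 0.16) and Egr2 (3.55 ± 0.25), and 4 were lower, led by Nfil3 (-2.18 ± 0.11).

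Irf8 set the named dendritic classes apart. In pDC the lowest, median and highest library held 2854, 3107 and 3589 CPM (3138 ± 243, SD, n = 8), in cDC1 1307, 1615 and 1744 CPM (1582 ± 137), and in cDC2 23.5, 43.5 and 156 CPM (59.3 ± 45.1). None of these ranges overlapped, but dendritic sub-clusters that took no name are not in them. Of those, the ones of 268, 251, 138, 62 and 32 cells lay between cDC2 and cDC1, at 689, 760, 924, 1024 and 283 CPM. The ones of 208, 201 and 164 cells held 1321, 1496 and 1726 CPM. B cells, which also use Irf8, held 428 ± 40.8 CPM, and immature neutrophils were the lowest class at 1.0 ± 1.18 CPM. Myeloid classes were ordered by the mean Irf8 level of the same libraries that were tested, and no share over all genes was computed. In that order 5 of the 9 neighbouring pairs differed. Those were pDC above cDC1, cDC1 above the F13a1+ Prtn3+ precursors, those above macrophages, monocytes above neutrophil precursors and progenitors above immature neutrophils (exact sign-flip tests, adjusted p = 0.037, or 0.0485 where 7 libraries entered).

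Batf3, the partner of Irf8 at cDC1 enhancers, stood at 186, 210 and 274 CPM in the lowest, median and highest library of cDC1. Migratory dendritic cells, a small class left out of the classes compared, held more in the libraries with enough cells. Those were AppNL-G-F food allergy (289 CPM) and WT food allergy (315 CPM). cDC2 held 90.6 ± 22.4 CPM, macrophages 62.8 ± 17.9 and monocytes 19.2 ± 12.5 (SD, n = 8). Neutrophil precursors, CD4 T cells and CD8 T cells held 0 UMIs of Batf3. Id2, which blocks E proteins and so the pDC path, stood at 413, 538 and 641 CPM in cDC1, against 153 ± 56.7 CPM in cDC2 and 12 ± 11.9 in pDC. NK cells (436 to 607 CPM) and ILC2 (393 to 597 CPM) overlapped cDC1. With cells of several hashtags left out, 27.8% of the UMIs of Id2 lay in the myeloid classes.

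Between cDC1 and cDC2, 3 members were higher and 5 lower of 8, where 18.8% of 6279 genes were higher and 20.3% lower. Irf8 (4.95 ± 0.16), Id2 (1.92 ± 0.12) and Batf3 (1.28 ± 0.11) were higher in cDC1 in 8 of 8 libraries. Cebpb (-2.49 ± 0.15), Cebpd (-1.68 ± 0.13), Klf4 (-0.99 ± 0.12) and Cebpa (-0.79 ± 0.13) were lower in 8 of 8, and Spi1 (-0.35 ± 0.07) in 7 of 8 (log2 ± SE, edgeR adjusted p from 1.3e-20 for Irf8 to 0.00011 for Spi1). Spi1 lost its call with at least 50 cells per class and library (-0.22, edgeR adjusted p = 0.067). Of 20 other factors 4 were higher, among them Zbtb46, a marker factor of conventional dendritic cells (0.998 ± 0.11). The 14 lower ones were led by Zeb2 (-6.27 ± 0.20) and Relb, an NF-κB subunit (-1.87 ± 0.15).

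Between pDC and cDC2, Irf8 was the 1 member that was higher (5.50 ± 0.19) and the other 7 tested were lower, where 26.8% of 4755 genes were higher and 28.5% lower. Batf3 (-6.55 ± 0.35) and Id2 (-4.27 ± 0.31) were lowest, followed by Cebpb (-2.59 ± 0.16), Spi1 (-2.55 ± 0.09), Klf4 (-2.47 ± 0.21), Cebpa (-2.09 ± 0.20) and Cebpd (-0.95 ± 0.13). Without TMM 77.5% of the calls were higher instead of 48.5%, with a median of all genes of 0.45. Batf3 was at 3 UMIs over all pDC, so its fitted value depends on the prior count. Of 22 other factors 7 were higher, led by Myb (5.67 ± 0.45) and Spib, a relative of PU.1 (4.62 ± 0.28), and 10 were lower, led by Zbtb46 (-4.58 ± 0.30) and Nr4a1 (-3.62 ± 0.29).

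**Figure D3:**
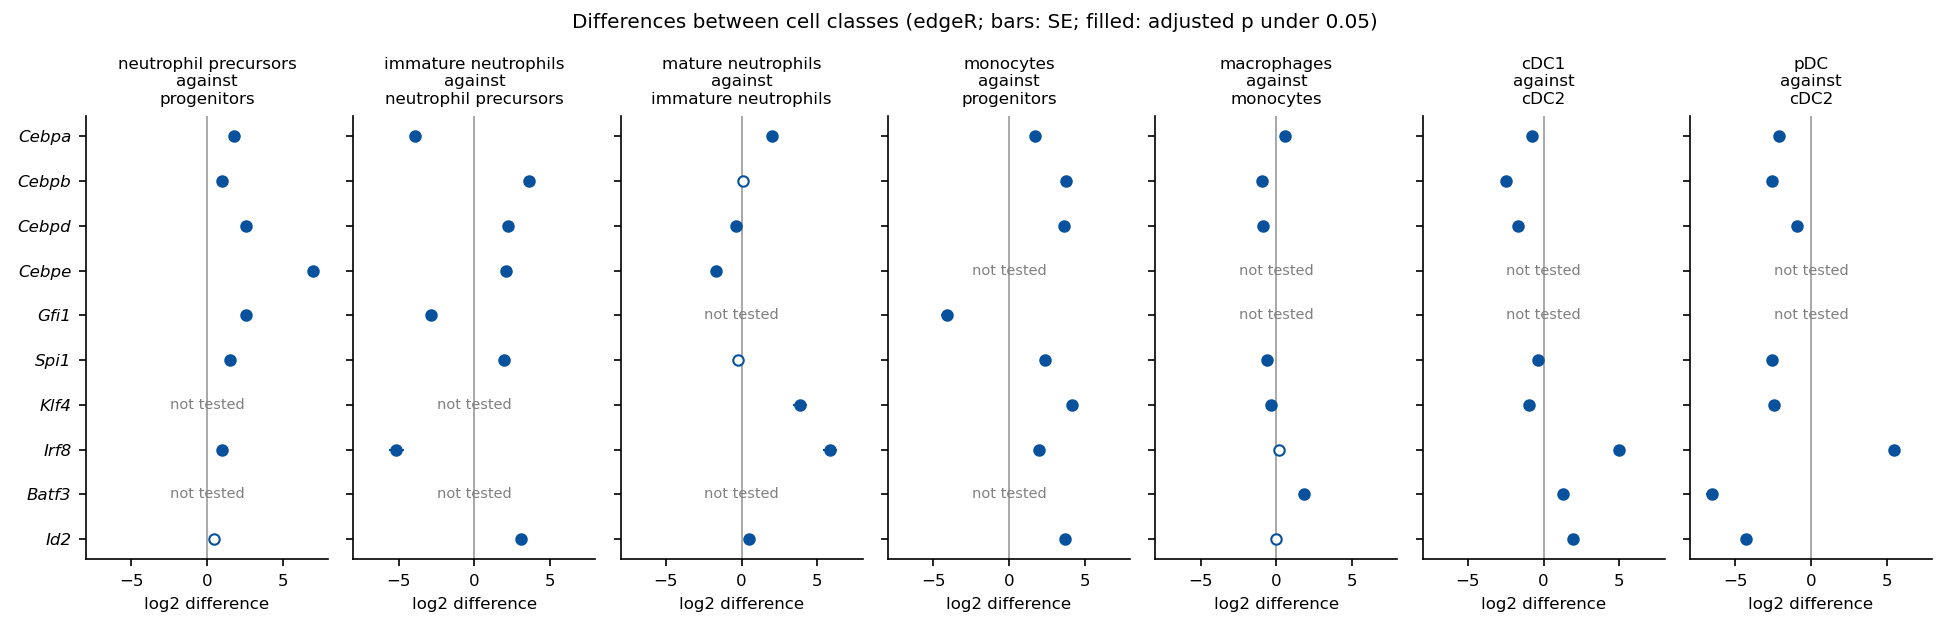
Log2 differences between 7 pairs of cell classes for the 10 factors, with the SE as bars; filled points passed an adjusted p of 0.05 in edgeR, open points did not, and factors under the count filter are marked as not tested. Irf8 is lower in immature neutrophils than in their precursors (-5.16) and higher in cDC1 and pDC than in cDC2 (4.95 and 5.50).

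Over the whole order of myeloid classes, 29 of 90 neighbouring pairs differed (exact sign-flip test on log2(CPM + 10), two-sided, adjusted over the 90 pairs). Classes were ordered by the mean levels of the same libraries. The test was run on the members alone, so no share over all genes can be set beside this count. The smallest p is 0.0078 with 8 libraries and 0.016 with 7, so a pair passes only when almost every library goes the same way. Cebpa differed between cDC2 and cDC1, and Cebpd between monocytes and the F13a1+ Prtn3+ precursors. The top of each order mostly stayed unresolved: Cebpe in immature neutrophils and neutrophil precursors (higher in 6 of 7 libraries, exact test, adjusted p = 0.083), Cebpd in immature and mature neutrophils, Cebpb in mature neutrophils, monocytes and immature neutrophils, Cebpa in macrophages and neutrophil precursors, and Spi1 in mature neutrophils, immature neutrophils and monocytes did not differ beyond their spread.

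The share of cells with a UMI was read after each cell was thinned to 1000 UMIs. Irf8 was then found in a median of 94.9% of pDC, 78.4% of cDC1 and 3.12% of cDC2, against 0.591% of CD8 T cells. Without thinning the shares were 100%, 99.0%, 12% and 1.91%. Cebpe was found in 17.4% of immature neutrophils and 8.96% of neutrophil precursors, and in at most 0.118% of B cells in any library. Gfi1 was found in 5.00% of neutrophil precursors, 0.906% of progenitors and 0.727% of B cells, so the share in progenitors was close to that in B cells. Library medians of depth ran from 20088 to 37920 UMIs per cell in neutrophil precursors, 4494 to 6468 in pDC and 2042.5 to 2713 in B cells, and without thinning Gfi1 was found in 65.0% of neutrophil precursors.

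Conditions were compared within a genotype with 1 library on each side. No test was made, a model of treatment over both genotypes was not fitted, and intervals cover counting error only. All contrasts of a genotype share its control library. A difference was named when it reached 2-fold on log2(CPM + 10) with at least 50 UMIs over both libraries. That held for 29 of 436 member, class and contrast values, against 2.80% of all such values of all genes. In cDC1 it held for 7 of 56 values, where the share of all genes was 1.72%, and in progenitors for 5 of 33 against 1.51%. In mature neutrophils it held for 8 of 43 against 8.37% of all genes. In cDC2 it held for 5 of 47 against 4.03%. The other classes lay near or below the share of all genes: immature neutrophils with 2 of 34 (3.47%), monocytes with 1 of 50 (3.84%), macrophages with 1 of 55 (3.10%), and neutrophil precursors with 0 of 42 (2.00%), F13a1+ Prtn3+ precursors with 0 of 54 (1.02%) and pDC with 0 of 22 (1.95%).

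All 7 values of cDC1 were lower levels of Cebpb and Cebpd in colitis. Cebpb in cDC1 of the WT control stood at 89.9 CPM (95% exact Poisson interval 70.7 to 113). Among treated WT mice it was 43.5 CPM with food allergy (29.1 to 62.4), 32.4 with chronic colitis (23.5 to 43.7) and 26.9 with acute colitis (19.7 to 35.9). The AppNL-G-F control stood at 83.1 CPM (69.0 to 99.2), and treated AppNL-G-F mice at 43.3 with food allergy (30.7 to 59.5), 15.8 with chronic colitis (10.1 to 23.5) and 16.4 with acute colitis (9.37 to 26.6). Both control libraries were above the other 6, and no interval of a control overlapped one of the other libraries.

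Of the genes compared in cDC1, 1.74% were at least 2-fold lower in acute and 1.72% in chronic colitis of WT mice, and 0.869% and 0.604% in those of AppNL-G-F mice. The hashtag groups within libraries kept the order: the 4 groups of the controls ran from 65.2 to 124 CPM and the 8 groups of the colitis libraries from 7.92 to 47.5 CPM. The summed immediate-early genes in cDC1 were 6671 and 6830 CPM in the controls and 6108 to 7969 CPM in the others. These are low levels: Cebpb in B cells ran from 30.1 to 112 CPM, highest in the WT control, and was above that of cDC1 in 6 of 8 libraries. After thinning, Cebpb was found in a median of 2.02% of cDC1 and 5.42% of B cells, so the share in cDC1 lay below that in B cells. The part of free RNA in the difference was not tested.

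Cebpd in cDC1 stood at 113 CPM in the WT control (91.0 to 138), and at 73.5 with food allergy (54.4 to 97.1), 41.5 with chronic colitis (31.2 to 54.0) and 25.8 with acute colitis (18.7 to 34.6). In AppNL-G-F mice the control held 71.5 CPM (58.5 to 86.6), food allergy 51.3 (37.4 to 68.6), chronic colitis 26.3 (18.8 to 35.8) and acute colitis 38.9 (27.6 to 53.4), of which the last did not reach 2-fold. Food allergy overlapped the control in both genotypes. B cells held 1.67 to 4.83 CPM of Cebpd, below every library of cDC1. Of the factors that define cDC1, Irf8 lay between 1307 and 1744 CPM, Batf3 between 186 and 274 CPM and Id2 between 413 and 641 CPM over the 8 libraries, and none reached 2-fold.

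In cDC2, Id2 was lower in acute colitis of both genotypes. The WT control held 225 CPM, and food allergy 128, chronic colitis 145 and acute colitis 77.3. The AppNL-G-F control held 208 CPM, and food allergy 175, chronic colitis 191 and acute colitis 76.9. The acute values rest on 74 and 34 UMIs, and their hashtag groups (63.4 to 108 and 75.7 to 78.2 CPM) lay below those of the controls (181 to 291 and 152 to 276 CPM). Of the genes compared in cDC2, 2.91% were as much lower in WT and 3.18% in AppNL-G-F mice. Batf3 in cDC2 of AppNL-G-F mice was 46.9 CPM in the control, on 16 UMIs, against 104 in acute and 112 in chronic colitis, where 1.08% and 0.93% of genes were as much higher. Irf8 in cDC2 of WT mice was 156 CPM in chronic colitis against 42.8 in the control, on 34 and 80 cells, where 2.94% of genes were as much higher.

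**Figure D4:**
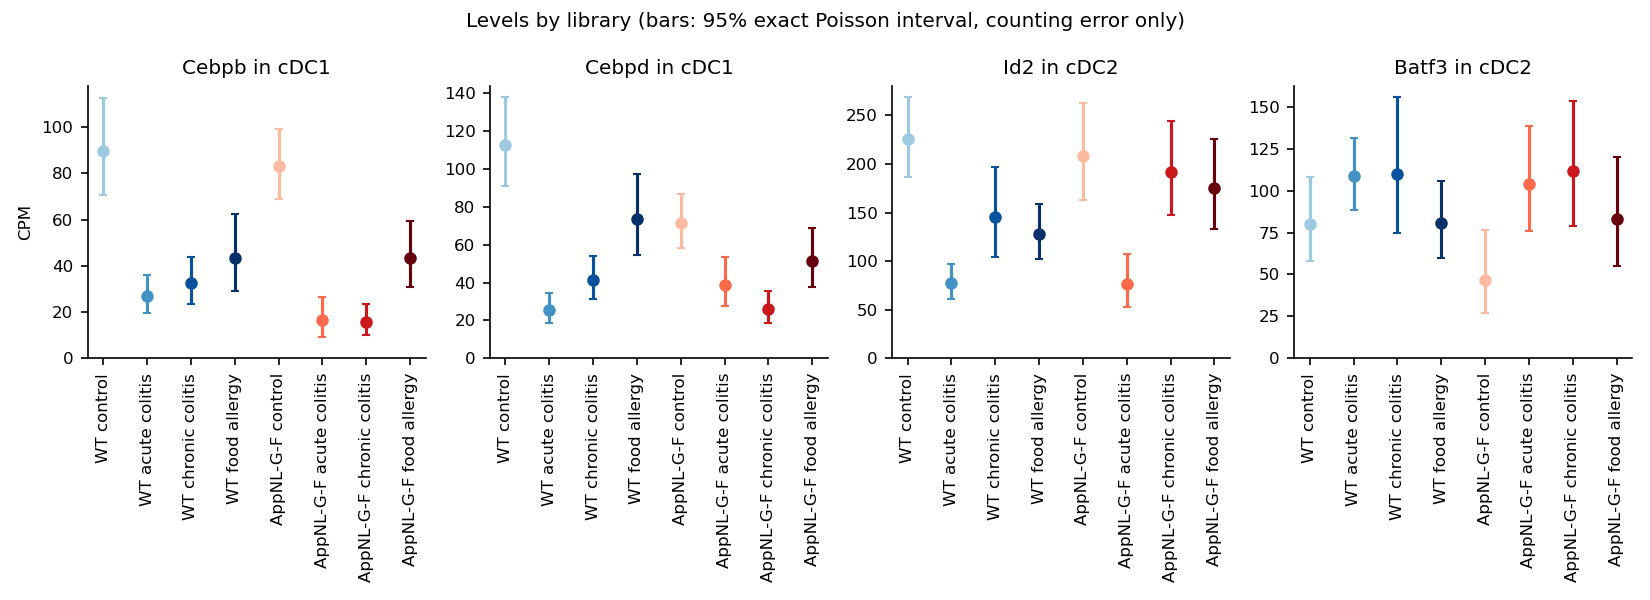
Levels by library of Cebpb and Cebpd in cDC1 and of Id2 and Batf3 in cDC2, in CPM, with 95% exact Poisson intervals that cover counting error only. Cebpb in cDC1 is highest in both controls (89.9 and 83.1 CPM), and Id2 in cDC2 is lowest in both acute colitis libraries (77.3 and 76.9 CPM).

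In progenitors and neutrophils the share of the low hashtag set differed between the libraries compared. Progenitors of the WT control, with 69.6% of their hashtagged cells in the low set, held 119 CPM of Cebpb. Acute colitis held 276 CPM (16.7% low), chronic colitis 281 CPM (0% low) and food allergy 675 CPM (4.55% low), and Cebpd was 108 CPM in food allergy against 33.1 in the control. Of the genes compared, 1.84%, 1.87% and 1.48% were at least 2-fold higher in these 3 contrasts. The summed immediate-early genes of these WT progenitors were 14753 CPM in food allergy and 9229 in acute colitis, against 5537 in the control, and 5046 in chronic colitis. In AppNL-G-F mice Cebpb lay between 88.5 and 169 CPM in all 4 libraries of progenitors. Within the high groups alone, Cebpb of WT chronic colitis lay below the control (-0.14 on the log2 scale). Irf8 in AppNL-G-F progenitors was 77.4 CPM in chronic colitis against 25.7 in the control, where 0.0973% of genes were as much higher and the low set made up 64.4% and 57.1%. In the low set Irf8 was 27.8 CPM in chronic colitis against 24.5 in the control, and in the high set, on 32 and 39 cells, 167 against 27.4 CPM.

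Immature neutrophils of AppNL-G-F mice with acute colitis, 95.4% of them in the low set, held 85.2 CPM of Id2 against 31.8 in the control, where 0.606% were, and 0.164% of genes were as much higher. The low set of that acute colitis library was the group of hashtag 7 alone, with 1154 immature neutrophils at 85.9 CPM of Id2. In the high groups alone the Id2 difference was -0.18. In WT mice Cebpb of immature neutrophils was 1370 CPM in acute colitis against 3129 in the control, where 8.01% of genes were as much lower and neither library had cells of the low set.

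In mature neutrophils of the WT control Cebpb was at 5329 CPM, Cebpe at 40.9, Irf8 at 142 and Spi1 at 1025, with 6.58% of the hashtagged cells in the low set. Its 83 UMIs of Irf8 lay outside the 2 high hashtag groups, whose 41 and 30 of the 78 cells held 0. In chronic colitis Cebpb was 1315 CPM and Cebpe 150 CPM, where 6.32% of genes were as much lower and 5.38% higher. Spi1 was 450 CPM in acute colitis, where 11.3% were as much lower, and Irf8 was 64.4 CPM in food allergy, where 1.33% were. The AppNL-G-F control, with 80.1% in the low set, held 1828 CPM of Cebpb, 41.7 of Irf8 and 176 of Cebpe, where 11.8% of genes were as much lower than in the WT control and 4.21% higher. Id2 was 148 CPM in AppNL-G-F acute colitis against 50.9 in its control, where 5.83% were as much higher. Without cells outside the high groups, Irf8 was higher and not lower in WT food allergy and in the AppNL-G-F control (2.87 and 3.5), and Id2 was lower in AppNL-G-F acute colitis (-0.31).

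Cebpb in monocytes was 1494 CPM in WT chronic colitis against 3217 in the control, where 4.63% of genes were as much lower. The summed immediate-early genes of those monocytes were 4080 against 14490 CPM, and their part in the result was not tested. Irf8 in macrophages was 218 CPM in the AppNL-G-F control against 100.2 in the WT control, where 2.01% were as much higher.

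Within libraries, cells of the high and low hashtag sets could be set side by side where each had at least 20. Of 27 combinations of a member and a class with at least 3 libraries and 50 UMIs, 8 went 1 way in every library, again with no test. Cebpb was higher in the high set of progenitors, at 315 CPM against 45.6, in 4 of 4 libraries, where 6.88% of 8261 genes were higher in all 4. The log2 differences ran from 2.05 to 3.17. These libraries were WT control and AppNL-G-F control, chronic colitis and food allergy. Cebpd in progenitors was 56.6 against 20.7 CPM, also in 4 of 4.

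In mature neutrophils Cebpb was at 4083 CPM in the high set against 612 in the low set, and Cebpe at 59.6 against 204 CPM, each in 4 of 4 libraries. All 4 were AppNL-G-F libraries, so no WT library entered. The sets lay in different sub-clusters of the class: the 712 cells with 6610 CPM of Cebpb and 20.5 of Cebpe held 699 cells of the high and 2 of the low set, and the 813 cells with 580 and 220 CPM held 223 and 585. There 24.1% of 5481 genes were higher in all 4 and 9.32% lower. Irf8 (126 against 23.4 CPM) and Klf4 (29.9 against 5.73 CPM) were also higher, in the class whose sub-clusters held macrophage and B cell markers. Klf4 in the F13a1+ Prtn3+ precursors was lower, at 176 against 207 CPM, in 4 of 4 libraries, where 13.7% of genes were lower in all. Those were the same libraries as for progenitors. In pDC, Cebpb was at 118 against 26.1 CPM in 3 of 3 libraries, all of AppNL-G-F mice, where 12.3% of genes were higher in all. Spi1, Cebpa and Gfi1 gave no such combination. What set the hashtag groups apart was not tested.

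**Figure D5:**
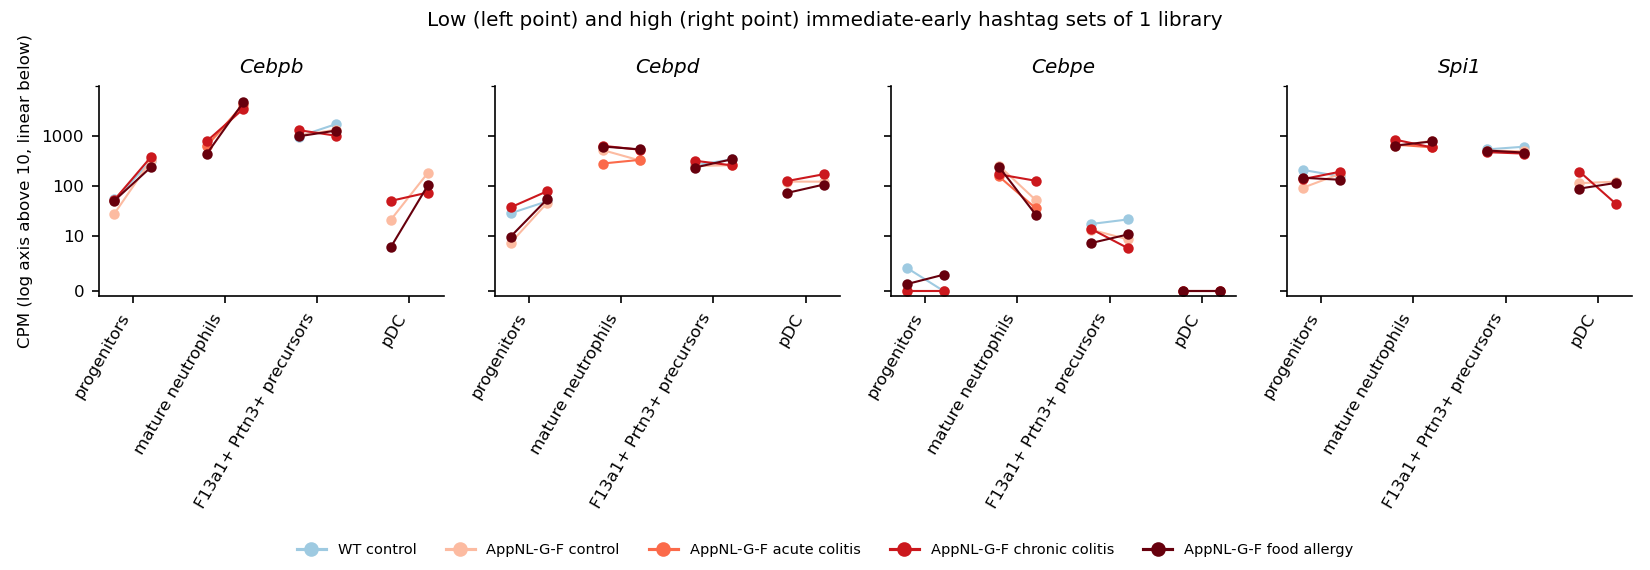
Level of Cebpb, Cebpd, Cebpe and Spi1 in the low (left point) and high (right point) hashtag set of the same library, in CPM on an axis that is logarithmic above 10 and linear below; each line is 1 library. Cebpb rises from left to right in every library of progenitors (45.6 to 315 CPM in the mean) and mature neutrophils (612 to 4083 CPM), and Cebpe falls in mature neutrophils (204 to 59.6 CPM). Mature neutrophils and pDC are shown for AppNL-G-F libraries only.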

How the data were processed

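Immune cells of 8 libraries from mouse brain were profiled by 10x 5′ sequencing. The authors deposited unfiltered UMI counts (Cell Ranger 6.1.2 and mm10 in the processing notes). From these counts cells were called against the ambient profile (false discovery rate 0.01), filtered on genes (200 or more) and mitochondrial UMIs (5% or less), assigned hashtags, and freed of cells with several hashtags. Clustering used scanpy 1.11.5 and leidenalg 0.10.2. Class sums were tested in edgeR 4.0.16 (quasi-likelihood, TMM, filterByExpr, library block, adjusted p under 0.05), and members between neighbouring classes with exact sign-flip tests on log2(CPM + 10). Classes were built from other genes of the same cells, and each library pools several mice by the study's methods, so p-values measure the spread between libraries. The named genes were the 10 members, in each contrast the 2 other listed factors with the largest rises and falls, and the 3 genes most like each member. Some genes that this rule names are not reported here. Members and lists were chosen with earlier results of these data known. The edgeR script was tested on simulated data. Alternatives covered normalisation, filters, DESeq2 1.42.0, clustering, hashtag sets and each library left out. Intervals are at 95%.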

Additional observations from a re-analysis of the deposited data

Results flagged for a closer look

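In 6 cases the 2 genotypes went opposite ways under the same treatment with at least 1 of them past 2-fold. Each side is 1 library, so the difference between genotypes was not tested. The values are log2 differences of CPM + 10 from the control of the same genotype. Cebpb in progenitors was 1.15 in WT and -0.78 in AppNL-G-F mice in acute colitis, and 2.41 and -0.21 in food allergy; the low hashtag set made up 69.6% of the WT control, 16.7% of WT acute colitis, 4.55% of WT food allergy, 57.1% of the AppNL-G-F control, 96.2% of its acute colitis and 52.2% of its food allergy. Cebpb in monocytes was -1.10 in WT and 0.15 in AppNL-G-F mice in chronic colitis, with low-set shares of 0.980% and 1.69% in the WT control and chronic colitis, and 25.2% and 12.5% in those of AppNL-G-F mice. Id2 in immature neutrophils was -0.32 in WT and 1.19 in AppNL-G-F mice in acute colitis, and the latter was -0.18 in the high hashtag groups alone; the low set made up 0.606% of its control and 95.4% of its acute colitis, and 0% of both WT libraries. Cebpe in mature neutrophils was 1.65 in WT and -0.14 in AppNL-G-F mice in chronic colitis. Irf8 in mature neutrophils was -1.03 in WT and 0.21 in AppNL-G-F mice in food allergy, and the former was 2.87 in the high hashtag groups alone, where the WT control held 0 UMIs. In these mature neutrophils the low set made up 6.58% of the WT control, 0% of WT chronic colitis and 1.55% of WT food allergy, against 80.1%, 58.6% and 66.3% in AppNL-G-F mice. In AppNL-G-F acute colitis the low set was the group of hashtag 7 alone. The part of the low-set shares in the differences was not tested.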

How the results depend on the processing

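With 1 library per genotype and condition, conditions were not tested, and depth limits members in small classes. The count of genes called between mature and immature neutrophils was 1949, against 2956 with library totals in place of TMM, 3785 with no filter on low counts and 74 in the low hashtag groups alone (2 libraries). Between pDC and cDC2 it was 2629, against 4440 with no filter. Between neutrophil precursors and progenitors it was 4039, against 1523 in the high groups alone (2 libraries) and 2477 in the low groups alone (3 libraries); there are fewer libraries in both. Leaving out each library gave 3610 to 4033 there, 6098 to 6320 for immature neutrophils against precursors, 1349 to 2119 for mature against immature neutrophils, 5934 to 6317 for monocytes against progenitors, 3372 to 3657 for macrophages against monocytes, 2150 to 2412 for cDC1 against cDC2 and 2428 to 2610 for pDC against cDC2. The 29 neighbouring pairs became 0 of 55 in the high groups alone and 17 with cells of several hashtags kept. The 29 named condition values became 5 of 160 in the low groups alone, and the 8 of 27 set combinations 3 of 17 when hashtag groups were averaged. Reversed in mature against immature neutrophils were Spi1 (0.063 with library totals, 0.20 without the 2 sub-clusters), Cebpd (0.10 without them) and Cebpb (-0.081 without WT acute colitis, up to 0.23 without WT chronic colitis). Id2 between macrophages and monocytes became 0.47 with cells of several hashtags kept (adjusted p = 0.023), 0.0018 in the high groups alone, and 0.021 without AppNL-G-F control, with a range of -0.12 to 0.043 over the libraries left out. In the high groups alone, Cebpb of WT chronic colitis progenitors was -0.14, Id2 of AppNL-G-F acute colitis -0.18 in immature and -0.31 in mature neutrophils, and Irf8 of mature neutrophils 2.87 in WT food allergy and 3.5 in AppNL-G-F against WT control; averaged over hashtag groups the last 2 were 3.04 and 1.01. Cebpd between mature and immature neutrophils lost its call without any 1 of 5 libraries (edgeR adjusted p = 0.051 to 0.089). Other causes were not tested. Library totals, dropped sub-clusters and left-out libraries were chosen after seeing the data. Scrublet called at most 4 cells per library and was not used as an alternative, and the low groups could not be fitted for the monocyte, macrophage and dendritic contrasts.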

Other observations

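The genes whose level followed each member most closely over 23 named classes were found by Pearson's r among 14437 genes; classes share libraries and depth, so r is a description. Batf3 was most like Gm17089 (r = 0.95), Arhgap22 (0.95) and Bcl2a1a (0.95), and Cebpe like Olr1 (0.95), Cldn15 (0.95) and Gm50022 (0.95). Spi1 was like Skap2 (0.91) and Csf2ra (0.91), a chain of the GM-CSF receptor. Cebpd was most like Lamp2 (0.90), Ltbr (0.90) and Adam15 (0.87), Cebpa like Tmem150b (0.87), Ccl9 (0.87) and Hk2 (0.86), and Gfi1 like Gm26692 (0.87), Pde4d (0.82) and Etaa1os (0.81). Irf8 was most like Pkib (0.86), Cd180 (0.83) and Fgd2 (0.83), Id2 like Dbndd2 (0.86), Fgl2 (0.85) and Ttc39b (0.83), Cebpb like Fosl2 (0.86), Pld1 (0.85) and Vill (0.83), and Klf4 like Slc35e4 (0.84), Tmem109 (0.84) and Tep1 (0.82). Among the members themselves, Cebpb and Cebpd were the most alike pair (r = 0.76).

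Outside the myeloid classes compared above, migratory dendritic cells in the 2 libraries with enough cells held 302 CPM of Batf3 and 516 of Id2, with 14.0 of Cebpb. In both libraries Batf3 was above every library of cDC1. A sub-cluster of 200 cells that lay with the granulocyte clusters but took no name was led by Cox6a2, a pDC marker, and Runx2. These cells held 1602 CPM of Irf8 and 218 of Klf4, with 3.42 of Cebpe and 0.760 of Gfi1. ILC2, a lymphoid cell, held 740 ± 350 CPM of Cebpb and 54.1 ± 9.0 CPM of Gfi1 (SD, n = 8), the second highest class mean of Gfi1 after neutrophil precursors.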
